A study of Homo sapiens with 7 samples.

Results

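The genes described here encode the carriers that move bicarbonate, protons, sodium, chloride, calcium, phosphate, other anions and zinc across human cell membranes. They are the rows of the deposited gene table whose symbol belongs to 1 of 10 solute carrier families (SLC4, SLC8, SLC9, SLC12, SLC20, SLC24, SLC26, SLC30, SLC34 and SLC39), which gave 76 of 57773 genes. Their transcripts were counted by RNA-seq in 2 libraries labelled KD and 3 labelled parent, all from MDA-MB-231, a long-established human line of triple-negative breast cancer. The series concerns APE1, a base excision repair endonuclease, and its binding to G-quadruplexes, guanine-rich DNA folded into stacked tetrads. The labels do not spell out KD. Their protocol text, which all samples share, describes cells knocked out for APE1 that carry an APE1 construct induced by doxycycline, and does not say whether that applies to these libraries, whether the KD cells are a single clone or whether replicates were separate cultures. P-values therefore measure the spread between these libraries, which may be technical. A chromatin immunoprecipitation sample for APE1 and its input were not analysed here.

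APEX1, the gene for APE1 (ENSG00000100823), had 43.3 and 48.3 CPM (counts per 1000000 counts of the library) in KD replicates 1 and 2 and 123.7, 132.2 and 134.8 CPM in parent replicates 1, 2 and 3, so the transcript followed the labels. Library totals lay between 14601078 and 18049386 counts. Of the 13 marker genes chosen for the line and for other cells, 12 were in the table. The mesenchymal marker VIM stood at 2148.8 ± 2.06 CPM in KD (SD, n = 2) and 2260.7 ± 106.0 CPM in parent (SD, n = 3), while the oestrogen receptor gene ESR1, the leukocyte gene PTPRC and the liver gene ALB were listed at 0 in every library. The luminal factor GATA3 was detected, at 33.5 to 38.1 CPM. Of the 8 tested markers 5 were called. The epithelial cadherin gene CDH1 was 2.19-fold higher in KD at low levels (7.70 ± 1.37 against 3.51 ± 0.430 CPM, SD, n = 2 and 3, edgeR adjusted p = 0.00587), and ERBB2 was 1.21-fold higher (edgeR adjusted p = 0.0426). CD44, AXL and MSN, which mark the basal and mesenchymal state, were 1.27-fold, 1.25-fold and 1.15-fold lower (edgeR adjusted p = 0.00951, 0.0296 and 0.0317). The epithelial gene EPCAM went the other way from CDH1. It was 1.26-fold lower in KD, at 9.71 ± 1.68 against 12.3 ± 0.671 CPM (SD, n = 2 and 3), and was not called (edgeR adjusted p = 0.121). The part of these marker differences in the transporter results was not tested.

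Solute carriers of these families set the ionic milieu of the cell. Zinc is lowered in the cytosol by most SLC30 (ZnT) proteins, which export it or load it into organelles. It is raised by SLC39 (ZIP) proteins, which carry it in the opposite direction. Intracellular pH depends on SLC9 sodium/proton exchangers and SLC4 bicarbonate transporters, and cell volume and chloride on SLC12 cation-chloride cotransporters. SLC20 and SLC34 proteins take up phosphate with sodium, SLC26 proteins exchange chloride, bicarbonate, sulphate and oxalate, and SLC8 and SLC24 proteins expel calcium in exchange for sodium.

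The line expressed only part of this repertoire. Of the 76 genes, 21 were listed at 0 in all 5 libraries and another 7 had too few counts to be tested, which left 48 tested members. The sodium/calcium exchanger genes SLC8A1, SLC8A2 and SLC8A3 were listed at 0 throughout, as were the renal salt cotransporters SLC12A1 and SLC12A3 and the renal and epithelial phosphate transporters SLC34A1 and SLC34A2. A count of 0 allows up to 0.168 to 0.205 CPM in a single library (3 counts, counting error only), and a 0 may also be a failed estimate. SLC34A3, the most counted SLC34 member, had 7 counts in KD replicate 1, 10 in parent replicate 1 and 0 in the other libraries. The phosphate part of the set thus rested on SLC20A1 and SLC20A2, and its calcium part on SLC24A1.

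Of the 48 tested members, 21 had an adjusted p under 0.05 in edgeR's quasi-likelihood comparison of KD with parent, with 13 up and 8 down in KD. In bulk RNA, a change in how many cells express a gene and a change in RNA per cell cannot be told apart. The called genes were 43.8% of the tested members, beside 21.5% of all 16198 tested genes. Of the members, 27.1% were higher and 16.7% lower, where 9.15% and 12.4% of all genes were. Restricted to genes with a mean of at least 5 CPM, the shares were 46.2% (18 of 39 members) and 24.4%. Changes were mostly small, since 2 called members (4.17%) differed at least 2-fold, beside 5.55% of all genes. The median log2 fold change of the tested members was 0.10, with SLC9A2 at its fitted value or at its bound, and that of all genes was 0.00. The libraries of the 2 groups did not overlap in CPM for 35 members (72.9%), where 51.4% of all genes were so separated. Without KD replicate 1, KD replicate 2 or parent replicate 2, the calls over all genes fell to 10.8%, 12.3% and 12.6% and those of the members to 31.2%, 33.3% and 31.2%.

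**Figure D1:**
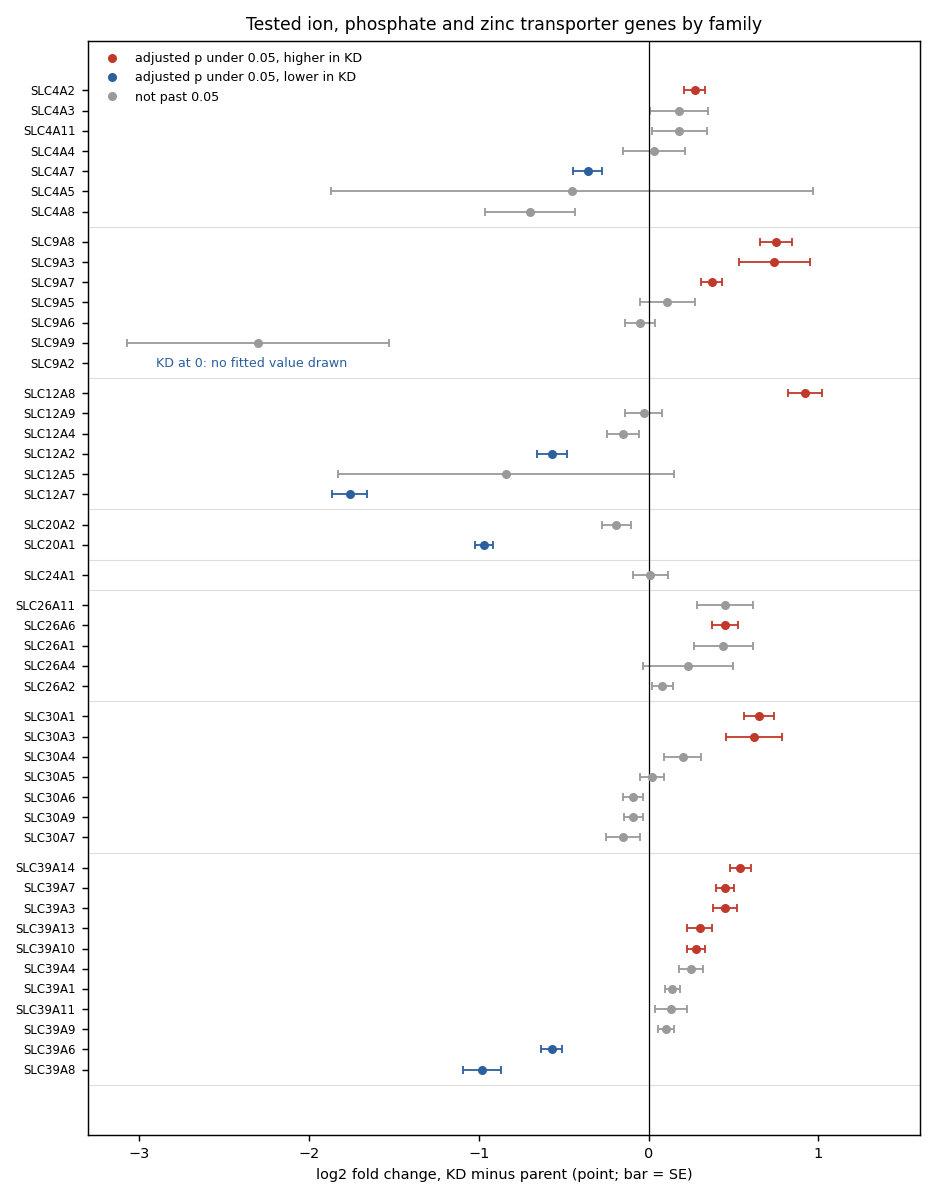
Log2 fold change of KD against parent (x axis, log2 scale, point with SE bar) for 46 of the tested members (y axis), grouped by family; red points are called higher in KD, blue points called lower and grey points not called. SLC9A9 at -2.30, not called, and SLC12A7 at -1.76 lie furthest to the left, followed by SLC39A8 at -0.98 and SLC20A1 at -0.97. Most SLC39 points lie to the right of 0, and SLC9A2, at 0 counts in KD, has no point.

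Zinc transporters moved in both directions, with more rises than falls. Of 18 tested SLC30 and SLC39 genes, 9 passed the test (50%, beside 21.5% of all genes). In KD 7 were higher (38.9%) and 2 lower (11.1%), beside 9.15% and 12.4% of all genes. The median log2 fold change of the 18 was 0.17. The importers made up most of the called zinc genes: 7 of 11 tested SLC39 genes were called (63.6%), 5 higher and 2 lower, with a median of 0.25. In the SLC30 family 2 of 7 tested genes were called, both higher, with a median of 0.02. That share, 28.6%, was near the 21.5% of all genes.

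Among the exporters, SLC30A1 (ENSG00000170385), the ZnT protein that expels zinc across the plasma membrane, had 94.0 and 89.5 CPM in the KD libraries and 52.5, 62.5 and 60.9 CPM in the parent libraries. Both KD values lay above every parent value. The rise was 1.57-fold, a log2 fold change of 0.65 ± 0.0865 (SE, edgeR adjusted p = 0.00289). SLC30A3, which loads zinc into synaptic vesicles in neurons, was 1.53-fold higher at low counts, 5.57 ± 0.170 CPM in KD (SD, n = 2) and 3.64 ± 0.457 CPM in parent (SD, n = 3; edgeR adjusted p = 0.0411). Its call did not hold in 8 of 9 alternative fits, among them DESeq2 (0.146) and the fits lacking KD replicate 1 (0.169), KD replicate 2 (0.126), parent replicate 1 (0.0692), parent replicate 2 (0.0610) and parent replicate 3 (0.109), within a range of adjusted p from 0.0419 to 0.169. Its span also overlaps DNAJC5G in RefSeq, and whether the authors counted by strand is not given in the sources used here. SLC30A9, the most counted SLC30 member, stood at 79.1 ± 2.05 CPM in KD (SD, n = 2) and 83.9 ± 1.82 CPM in parent (SD, n = 3), with edgeR adjusted p = 0.328.

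SLC39A8 (ENSG00000138821), the importer ZIP8, which carries zinc and manganese, had the largest log2 change of the called zinc genes. It had 21.6 and 24.2 CPM in KD and 39.6, 48.6 and 47.7 CPM in parent, with no overlap. The level was 1.97-fold lower in KD, a log2 fold change of -0.98 ± 0.111 (SE, edgeR adjusted p = 0.00143). SLC39A14 (ENSG00000104635), the closely related ZIP14, which also carries iron and manganese, moved the other way. It had 269.7 and 239.1 CPM in KD and 180.1, 173.1 and 171.7 CPM in parent, a 1.45-fold rise with a log2 fold change of 0.54 ± 0.0616 (SE, edgeR adjusted p = 0.00149). SLC39A6 (ENSG00000141424), known as LIV-1 and first described as an oestrogen-induced gene of breast cancer cells, had 66.8 and 62.0 CPM in KD and 95.2, 97.9 and 93.3 CPM in parent. Again no KD library reached a parent library, and the level was 1.48-fold lower (log2 fold change -0.57 ± 0.0615 SE, edgeR adjusted p = 0.00123).

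SLC39A7 (ENSG00000112473), which releases zinc from the endoplasmic reticulum and Golgi, had 115.5 and 119.3 CPM in KD and 86.0, 83.8 and 88.1 CPM in parent. The 1.37-fold rise exceeded the spread within either group (log2 fold change 0.45 ± 0.0512 SE, edgeR adjusted p = 0.00148). SLC39A3, a plasma membrane importer, was higher by the same factor, 1.37-fold, at 47.3 ± 0.492 against 34.5 ± 1.93 CPM (SD, n = 2 and 3, edgeR adjusted p = 0.00477). SLC39A10 (ENSG00000196950), a relative of LIV-1, had 189.2 and 176.3 CPM in KD and 155.6, 149.6 and 146.4 CPM in parent, a 1.21-fold rise (edgeR adjusted p = 0.0117). SLC39A13 (ENSG00000165915), an intracellular zinc carrier needed for connective tissue, had 85.1 and 79.4 CPM in KD and 69.6, 62.5 and 67.7 CPM in parent, a 1.23-fold rise (edgeR adjusted p = 0.0257). SLC39A1, the most counted importer, did not pass, at 222.0 ± 3.45 CPM in KD (SD, n = 2) and 201.7 ± 0.687 CPM in parent (SD, n = 3; edgeR adjusted p = 0.0568). SLC39A4, named after its value was seen because it lay next to the threshold, stood at 26 ± 1.04 and 21.9 ± 0.803 CPM (SD, n = 2 and 3, edgeR adjusted p = 0.0504). The call on SLC39A10 was lost without KD replicate 1 (0.113) or parent replicate 2 (0.0537), within 0.000738 to 0.113. That on SLC39A13, whose span overlaps its own antisense gene in RefSeq, did not hold in the fits lacking KD replicate 1 (0.142), KD replicate 2 (0.0527), parent replicate 2 (0.0862) and parent replicate 3 (0.0510), in a range from 0.00853 to 0.142.

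**Figure D2:**
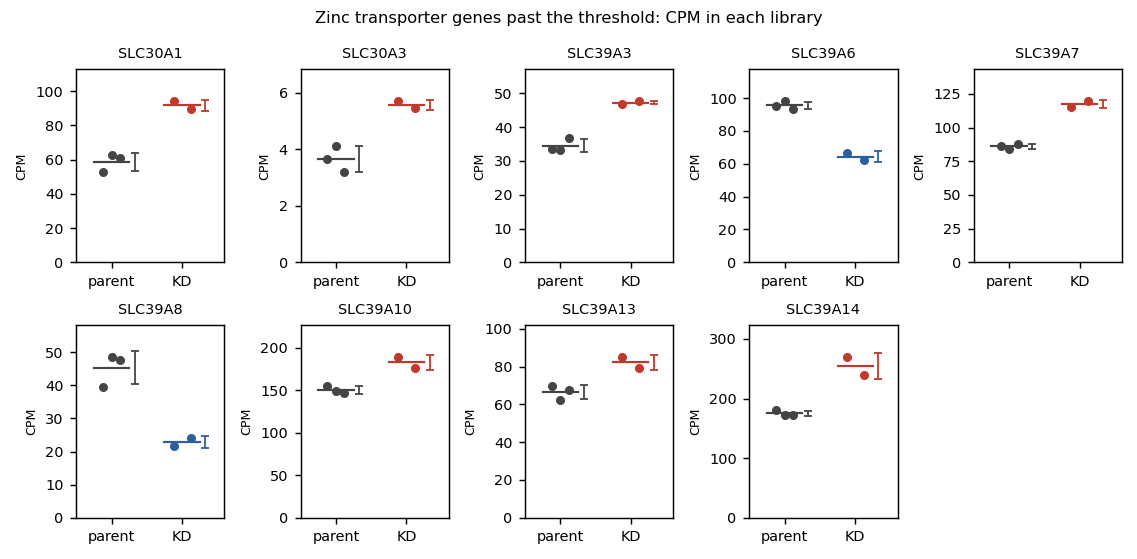
CPM (y axis, linear from 0) of the 9 called zinc transporter genes in the 3 parent and 2 KD libraries; points are libraries, horizontal lines group means and the bars beside them SD. In each panel the KD points lie wholly above (red) or wholly below (blue) the parent points, with SLC39A6 and SLC39A8 the panels in which they lie below.

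Sequences upstream of these genes are shown because some zinc genes are known to be controlled by the zinc-sensing factor MTF1, which binds metal response elements. The MTF1 transcript, named after its value was seen, was not called. It stood at 45.5 ± 1.4 CPM in KD and 44.2 ± 3.08 CPM in parent (SD, n = 2 and 3, edgeR adjusted p = 0.756). RefSeq promoters, the 250 bases before to the 50 bases after a gene start (GRCh38.p14), were matched by symbol for 62 of the 76 members and 19 of the 21 called ones. Those of the 4 called zinc genes with the largest log2 changes are given 5′ to 3′ on the strand of the gene, at the most upstream of their starts. Capitals mark each match to TGCACNC or TGCGCNC on either strand, the core letters of a metal response element. They lie at chr4:102345433-102345732 (minus strand) for SLC39A8, chr1:211579112-211579411 (minus) for SLC30A1, chr2:27275297-27275596 (minus) for SLC30A3 and chr18:36129291-36129590 (minus) for SLC39A6.
SLC39A8: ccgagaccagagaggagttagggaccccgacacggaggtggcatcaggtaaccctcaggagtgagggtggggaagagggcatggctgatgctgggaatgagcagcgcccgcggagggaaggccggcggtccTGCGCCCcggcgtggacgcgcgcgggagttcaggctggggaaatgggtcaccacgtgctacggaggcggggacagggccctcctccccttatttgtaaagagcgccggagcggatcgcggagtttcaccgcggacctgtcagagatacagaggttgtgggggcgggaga
SLC30A1: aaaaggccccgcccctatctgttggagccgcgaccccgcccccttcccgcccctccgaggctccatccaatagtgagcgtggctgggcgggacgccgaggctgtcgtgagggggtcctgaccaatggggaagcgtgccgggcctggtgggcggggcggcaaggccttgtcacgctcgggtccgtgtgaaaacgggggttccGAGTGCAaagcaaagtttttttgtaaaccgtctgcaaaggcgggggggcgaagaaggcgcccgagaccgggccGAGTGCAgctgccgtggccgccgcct
SLC30A3: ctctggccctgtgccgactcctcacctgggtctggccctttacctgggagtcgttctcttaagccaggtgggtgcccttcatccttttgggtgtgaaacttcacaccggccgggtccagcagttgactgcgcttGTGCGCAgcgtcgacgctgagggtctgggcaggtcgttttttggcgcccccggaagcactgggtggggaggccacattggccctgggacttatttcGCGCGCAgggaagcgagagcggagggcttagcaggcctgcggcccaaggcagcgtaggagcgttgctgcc
SLC39A6: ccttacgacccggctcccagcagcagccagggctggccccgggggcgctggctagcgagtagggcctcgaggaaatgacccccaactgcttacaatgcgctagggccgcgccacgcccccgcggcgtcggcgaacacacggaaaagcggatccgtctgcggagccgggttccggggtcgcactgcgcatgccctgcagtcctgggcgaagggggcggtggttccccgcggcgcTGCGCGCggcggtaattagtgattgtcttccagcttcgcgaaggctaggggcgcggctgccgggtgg
The windows shown for SLC30A1 and SLC30A3 held 2 matches each, and those for SLC39A8 and SLC39A6 held 1 each. At the starts not shown, SLC39A8 held 0 matches and SLC30A3 held 1. Among the other called zinc genes with a RefSeq promoter, all higher in KD, SLC39A7 held 0, SLC39A3 held 1, and SLC39A10 and SLC39A13 held 0 at one start and 1 at the other. Such a match was found in 17 of the 29 promoters of called members (58.6%), in 45.3% of the promoters of tested members, in 37.0% of those of all tested genes and in 29.6% of all 35116 promoters. A G-quadruplex pattern, here 4 runs of GGG separated by 1 to 7 bases on either strand, was found in 14 of the 29 promoters of called members (48.3%), in 35.9% of those of tested members, in 33.8% of those of all tested genes and in 24.9% of all promoters. Some genes gave several, partly overlapping promoters. By gene, a metal response match was found in 14 of 19 called members, 23 of 40 tested members and 4604 of 10002 tested genes. The G-quadruplex pattern was found in 12, 20 and 4139 of these. Base composition differed between these sets, with a median GC content of 67.0% for called members, 64.8% for tested members, 64.7% for tested genes and 58.7% for all promoters. The single RefSeq promoters of SLC39A6, SLC12A7 and SLC20A1 held no such G-quadruplex pattern, whereas those of SLC12A2 and SLC9A2 did. All of these genes were lower in KD. Of the genes higher in KD, the single promoters of SLC30A1, SLC39A3, SLC39A7, SLC9A3 and SLC9A8 held the pattern. Those of SLC12A8 and SLC9A7 did not. The letters describe these windows only, and occupancy was not measured in the files used here.

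The transcript of SLC20A1 (ENSG00000144136) was lower in KD. It encodes the sodium-dependent phosphate transporter PiT-1, a general phosphate importer of most cells. It had 148.2 and 162.0 CPM in KD and 303.0, 305.8 and 305.3 CPM in parent, and the parent libraries lay within a narrow band. The level was 1.96-fold lower in KD, with a log2 fold change of -0.97 ± 0.0534 (SE, edgeR adjusted p = 8.77e-05), and it had the smallest adjusted p of the tested members. Its paralogue SLC20A2 (PiT-2) had 19.7 and 21.4 CPM in KD and 22.4, 23.0 and 24.9 CPM in parent, which did not pass (log2 fold change -0.19 ± 0.0831 SE, edgeR adjusted p = 0.161).

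The cation-chloride cotransporters were lower in 3 of 7 tested members (42.9%, beside 12.4% of all genes). They were higher in 1 (14.3%, beside 9.15%), and the median log2 fold change of the family was -0.57. SLC12A7 (ENSG00000113504), the potassium-chloride cotransporter KCC4, which lets potassium chloride leave swollen cells, had 18.4 and 19.0 CPM in KD and 70.7, 57.9 and 61.6 CPM in parent. The lowest parent library was thus far above both KD libraries, and the level was 3.38-fold lower (log2 fold change -1.76 ± 0.104 SE, edgeR adjusted p = 0.000119).

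SLC12A2, the importer NKCC1, which brings in sodium, potassium and chloride, was 1.49-fold lower, at 28.6 ± 2.19 against 42.6 ± 3.19 CPM (SD, n = 2 and 3, edgeR adjusted p = 0.00528). The exporter gene SLC12A7 and this importer gene therefore both fell. SLC12A8 (ENSG00000221955), a divergent member, had 60.5 and 53.6 CPM in KD and 33.9, 28.3 and 28.2 CPM in parent, a 1.89-fold rise (log2 fold change 0.92 ± 0.102 SE, edgeR adjusted p = 0.00133). SLC12A9, the most counted member, stood at 64.2 ± 8.69 and 65.6 ± 5.51 CPM (SD, n = 2 and 3, edgeR adjusted p = 0.875). SLC12A5, the neuronal KCC2, was near the floor, at 1.08 and 0 CPM in KD and 1.15, 0.410 and 1.29 CPM in parent (edgeR adjusted p = 0.597).

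Sodium/proton exchangers were higher in 3 of 8 tested members (37.5%, beside 9.15% of all genes) and lower in 1 (12.5%, beside 12.4%). SLC9A8 (ENSG00000197818), the exchanger NHE8 of Golgi and endosomal membranes, had 56.1 and 51.7 CPM in KD and 34.5, 32.8 and 28.7 CPM in parent, a 1.69-fold rise with no overlap (log2 fold change 0.75 ± 0.0918 SE, edgeR adjusted p = 0.00196). SLC9A7 (ENSG00000065923), the trans-Golgi exchanger NHE7 and the most counted of the family, had 66.0 and 67.2 CPM in KD and 50.9, 49.8 and 53.5 CPM in parent, a 1.29-fold rise (log2 fold change 0.37 ± 0.0639 SE, edgeR adjusted p = 0.00773).

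Exchangers better known from epithelia were sparse. SLC9A2 (NHE2) had 0 counts in both KD libraries and 11, 22 and 22 counts in the parent libraries, at 1.14 ± 0.407 CPM (SD, n = 3). It was at least 11.6-fold lower in KD against a floor of 3 counts over that group, 0.0988 CPM, which covers counting error only (edgeR adjusted p = 0.00658). SLC9A3 (NHE3) was 1.67-fold higher, at 2.89 ± 0.167 against 1.73 ± 0.222 CPM (SD, n = 2 and 3, edgeR adjusted p = 0.0480). That call did not hold in 7 of 9 alternatives, among them DESeq2 (0.223), the replicate block (0.142) and the fits lacking KD replicate 1 (0.139), KD replicate 2 (0.196), parent replicate 2 (0.127) and parent replicate 3 (0.121), in a range from 0.0455 to 0.223, and an antisense gene overlaps it in RefSeq. SLC9A9, an endosomal exchanger, had 0 and 6 counts in KD and 19, 14 and 15 counts in parent (edgeR adjusted p = 0.0798). Without KD replicate 2, which held all of its KD counts, it passed (0.0191, within 0.0191 to 0.183).

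The bicarbonate transporters were called in 2 of 7 tested members (28.6%, near the 21.5% of all genes), 1 in each direction. SLC4A2 (ENSG00000164889), the chloride/bicarbonate exchanger AE2, had 270.1 and 269.0 CPM in KD and 214.4, 214.1 and 241.9 CPM in parent, a 1.21-fold rise (log2 fold change 0.27 ± 0.0646 SE, edgeR adjusted p = 0.0269). SLC4A7, the sodium-bicarbonate cotransporter NBCn1, which acts against acid load in breast cancer cells, was 1.28-fold lower at 25.6 ± 1.24 against 32.8 ± 2.47 CPM (SD, n = 2 and 3, edgeR adjusted p = 0.0235). An acid loader thus rose while an acid extruder fell, both by less than 1.5-fold. The call on SLC4A2 did not hold in the fits lacking KD replicate 1 (0.139), KD replicate 2 (0.125), parent replicate 1 (0.0637) and parent replicate 2 (0.0935) or the filter on low counts (0.0775), in a range from 0.00281 to 0.139. That on SLC4A7 did not hold in the fits lacking KD replicate 1 (0.150), KD replicate 2 (0.0824), parent replicate 2 (0.0817) and parent replicate 3 (0.0614) or the filter (0.0565), in a range from 0.0126 to 0.150. SLC4A8, a sodium-driven chloride/bicarbonate exchanger, had 1.15 and 1.03 CPM in KD and 1.72, 1.5 and 2.07 CPM in parent, and did not pass (log2 fold change -0.70 ± 0.266 SE, edgeR adjusted p = 0.110).

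Among the anion exchangers of the SLC26 family 1 of 5 tested members was called. SLC26A6, which exchanges chloride for oxalate or bicarbonate, was 1.36-fold higher, at 47.0 ± 2.32 against 34.5 ± 2.25 CPM (SD, n = 2 and 3, edgeR adjusted p = 0.00779), and lost its call without KD replicate 2 (0.0611, within 0.000965 to 0.0611). SLC26A2, the sulphate transporter and most counted member, had 87.6 and 85.1 CPM in KD and 77.1, 84.9 and 82.3 CPM in parent (edgeR adjusted p = 0.393). The KD libraries lay above the parent libraries in all 5 tested SLC26 members, by small margins in SLC26A2 and SLC26A4, where 25.3% of all tested genes were separated in that direction. The 1 call among 5 (20%) was near the 21.5% of all genes. SLC24A1, the potassium-dependent sodium/calcium exchanger, stood at 10.1 ± 0.160 and 10 ± 0.485 CPM (SD, n = 2 and 3, edgeR adjusted p = 0.973).

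**Figure D3:**
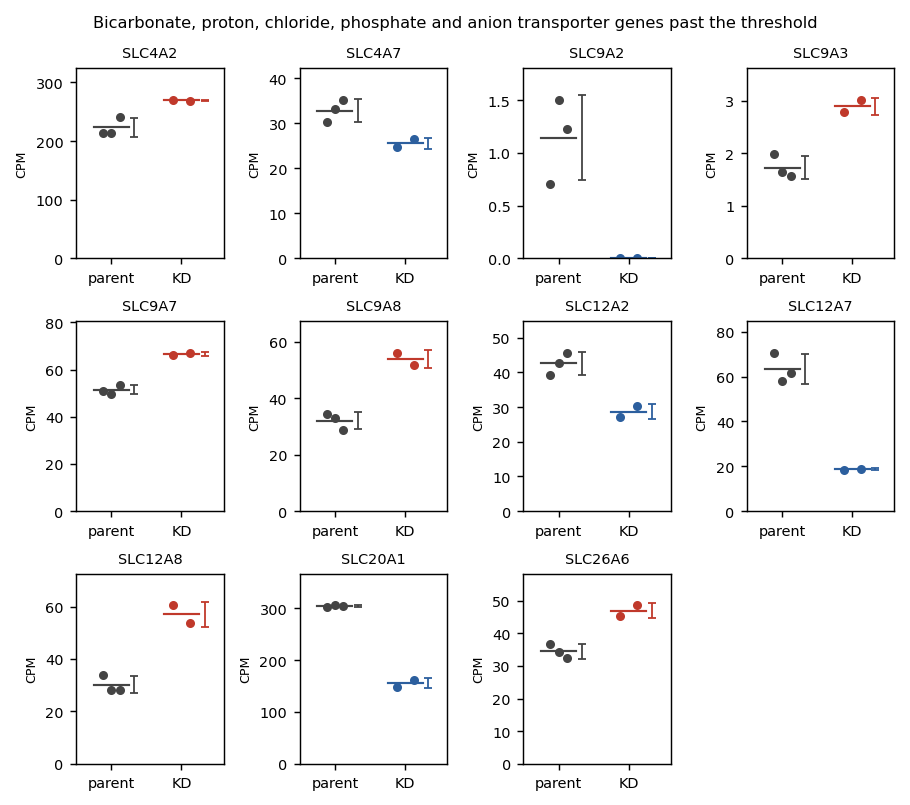
CPM (y axis, linear from 0) of 11 called members outside the zinc families in the 3 parent and 2 KD libraries; points are libraries, horizontal lines group means and the bars beside them SD. Red KD points lie above and blue KD points below all parent points, and SLC9A2 has both KD points at 0.

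In the authors' deposited table, 18 of the 76 members had an adjusted p under 0.05, and all 18 were among the 21 called here. The sign of the fold change in the authors' deposited table was the same for each of the 21. The other 3 were SLC4A7, SLC30A3 and SLC9A3, with adjusted p of 0.0658, 0.275 and 0.379 in the authors' deposited table. In the edgeR and DESeq2 alternatives computed here, 14 of the 21 calls held in all 9 and 7 were lost in at least 1.

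**Figure D4:**
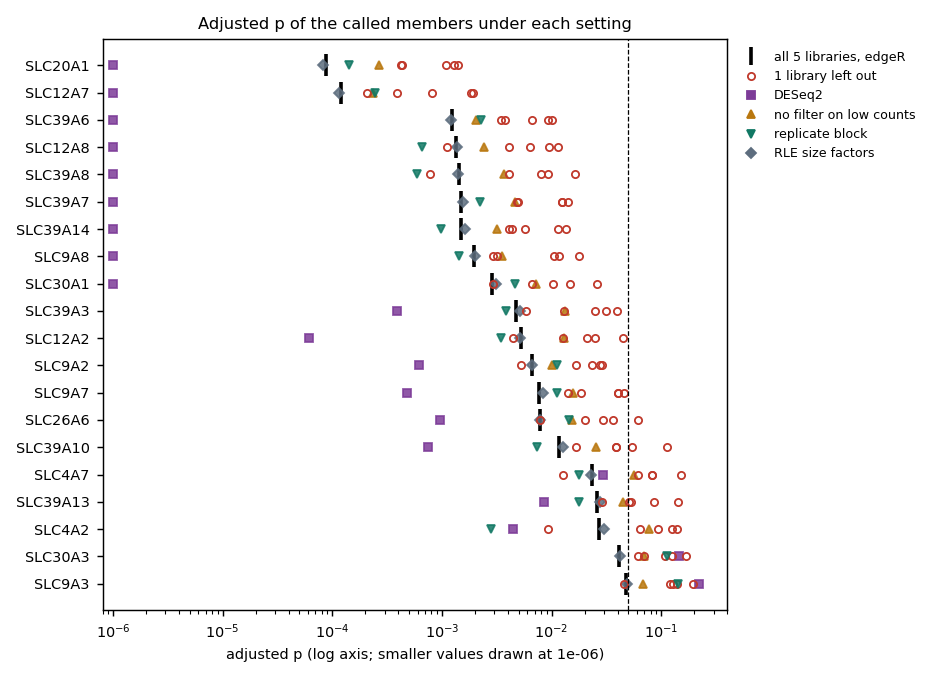
Adjusted p (x axis, log scale, values under 1e-06 drawn at 1e-06) of 20 of the called members (y axis) in the fit of all 5 libraries with edgeR (black bar) and in 9 alternatives (symbols); the dashed line marks 0.05. From SLC20A1 down to SLC9A7 every symbol lies left of the line, and SLC30A3 and SLC9A3 at the foot have most symbols to its right.

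Genes that work beside these transporters were described from 5 lists. Of the 10 tested genes for zinc buffering and sensing, 1 was higher (10%) and 3 were lower (30%), together 40% beside 21.5% of all genes. Over all genes 9.15% were higher and 12.4% lower. The median log2 fold change of the list was -0.01. MT2A, the main metallothionein, which binds zinc in the cytosol, had 283.1 and 298.0 CPM in KD and 337.8, 327.0 and 335.3 CPM in parent, 1.15-fold lower (edgeR adjusted p = 0.0264). MT1A was at 0 in both KD libraries and at 2.47 ± 0.214 CPM in parent (SD, n = 3), at least 25-fold lower (edgeR adjusted p = 0.000586), whereas MT1F was 1.53-fold higher (edgeR adjusted p = 0.0207). TRPM7, a channel that passes zinc and magnesium, was 1.22-fold lower (edgeR adjusted p = 0.0209). Metallothionein genes are near-identical copies, so reads may have been divided between them wrongly. The list had 1 call left in each fit lacking KD replicate 1, KD replicate 2, parent replicate 2 and parent replicate 3, in which MT2A (up to 0.180), MT1F (up to 0.0979) and TRPM7 (up to 0.121) were lost, within 0.00157 to 0.180, 0.0210 to 0.0979 and 0.0195 to 0.121. DESeq2 also lost MT1F.

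Of 17 tested genes for pH regulation, 2 were higher (11.8%) and 4 lower (23.5%), together 35.3% beside 21.5% of all genes. The median was -0.09. Carbonic anhydrases, which interconvert carbon dioxide and bicarbonate, gave 3 of the 4 falls. Other tested genes of that family, named after their values were seen, were not called. They were CA5B, CA9, CA11 and CA14 (edgeR adjusted p = 0.172, 0.431, 0.831 and 0.781). CA12, an enzyme of the cell surface, had 11.7 and 6.73 CPM in KD and 43.1, 28.6 and 26 CPM in parent, 3.54-fold lower with a wide spread (edgeR adjusted p = 0.00663). The cytosolic CA13 was 2.39-fold lower (8.45 ± 0.650 against 20.2 ± 1.58 CPM, SD, n = 2 and 3, edgeR adjusted p = 0.000558). CA2 was at 0 in both KD libraries and at 2.41 ± 0.489 CPM in parent (SD, n = 3), at least 24.4-fold lower (edgeR adjusted p = 0.00108). SLC9A3R2, a scaffold that anchors NHE3, was 1.38-fold lower (edgeR adjusted p = 0.00658). The 4 falls held in all 9 alternatives. The 2 higher genes, named after their values were seen, were the proton channel HVCN1 (1.34-fold, edgeR adjusted p = 0.0304) and the scaffold PDZK1 (2.04-fold at low counts, edgeR adjusted p = 0.0427), and each lost its call in 6 of 9 alternatives. Both were lost with DESeq2, without the filter on low counts and in the fits lacking KD replicate 1, parent replicate 1 and parent replicate 2, HVCN1 also without KD replicate 2 and PDZK1 also without parent replicate 3, within 0.0324 to 0.153 and 0.0374 to 0.259.

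Of 17 tested genes for sodium/potassium pumps and the kinases and ligases that act on chloride cotransport, 3 were higher (17.6%) and 6 lower (35.3%). These calls were 52.9% of the list, beside 21.5% of all genes, and the median was -0.15. NEDD4L, a ubiquitin ligase for sodium transporters, had 58.4 and 64.1 CPM in KD and 150.1, 146.6 and 146.5 CPM in parent, 2.41-fold lower (edgeR adjusted p = 5.06e-05). SGK1, the kinase that phosphorylates and restrains NEDD4L, had 36.8 and 38.5 CPM in KD and 17.6, 19.5 and 17.7 CPM in parent, 2.06-fold higher (edgeR adjusted p = 0.000234). ATP1B1, the beta subunit of the sodium pump, was 1.79-fold lower (edgeR adjusted p = 0.000521). OXSR1, a kinase that activates NKCC1 and inhibits the KCC exporters, was 1.25-fold lower (edgeR adjusted p = 0.00334). Of the 9 calls, 7 held in all 9 alternatives. FXYD5 and CAB39L are named after their values were seen. FXYD5 was lost in 6, which were each fit with a library left out and that without a filter (range of adjusted p 0.0172 to 0.237), and CAB39L was lost without KD replicate 1 (0.0574, within 0.00943 to 0.0574).

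Of 21 tested genes for calcium pumps and calcium entry, 4 were higher (19%) and 3 lower (14.3%), together 33.3% beside 21.5% of all genes. The median was -0.04. Both plasma membrane calcium pumps that passed were higher: ATP2B1 had 453.8 and 444.6 CPM in KD and 298.8, 291.5 and 289.8 CPM in parent, a 1.53-fold rise (edgeR adjusted p = 0.000234). ATP2B4 had 586.5 and 503.3 CPM in KD and 350.4, 296.5 and 307.5 CPM in parent, a 1.71-fold rise (edgeR adjusted p = 0.00177). ITPR1, a receptor that releases calcium from the endoplasmic reticulum, was 2.77-fold lower (10 ± 0.389 against 27.8 ± 2.34 CPM, SD, n = 2 and 3, edgeR adjusted p = 0.000215). Its relatives ITPR2 and ITPR3, named after their values were seen, were not called. Their levels in KD were 1.14-fold and 1.1-fold those in parent (edgeR adjusted p = 0.169 and 0.217). ORAI2, a subunit of store-operated calcium channels, was 1.2-fold higher (edgeR adjusted p = 0.0262). The list had 3 calls left in each fit lacking KD replicate 1, parent replicate 2 and parent replicate 3, in which ORAI2 and, named after their values were seen, STIM1, ATP2A2 and ORAI1 were lost. ORAI2 also lost its call without the filter on low counts, with a range of adjusted p of 0.0128 to 0.165. The calls on ATP2B1, ATP2B4 and ITPR1 held in all 9 alternatives.

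Of 10 tested genes for phosphate export and mineralisation, 4 were lower (40%, beside 12.4% of all genes) and 0 higher. The median was -0.45. ENPP1, which makes pyrophosphate from extracellular ATP, had 42.9 and 40.6 CPM in KD and 172.9, 164.2 and 144.7 CPM in parent, 3.84-fold lower (edgeR adjusted p = 5.01e-05). NT5E (CD73), which releases phosphate and adenosine from AMP, had 116.3 and 118.8 CPM in KD and 399.6, 387.8 and 390.6 CPM in parent, 3.34-fold lower (edgeR adjusted p = 8.41e-06). ANKH, which brings pyrophosphate precursors out of the cell, was 1.71-fold lower (edgeR adjusted p = 0.000865), and the phosphate-regulating hormone STC1 was 2.03-fold lower (edgeR adjusted p = 0.00540). The phosphate importer gene SLC20A1 and these 4 genes, named because they were called, were all lower in the KD libraries. Each of the 5 calls held in all 9 alternatives. Of the uncalled list genes, XPR1 had 62.4 and 61.8 CPM in KD and 70.3, 70.8 and 70.2 CPM in parent (edgeR adjusted p = 0.0649). PHOSPHO1 was 2.76-fold higher at low levels, 1.5 ± 0.873 against 0.543 ± 0.216 CPM (SD, n = 2 and 3, edgeR adjusted p = 0.0822).

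**Figure D5:**
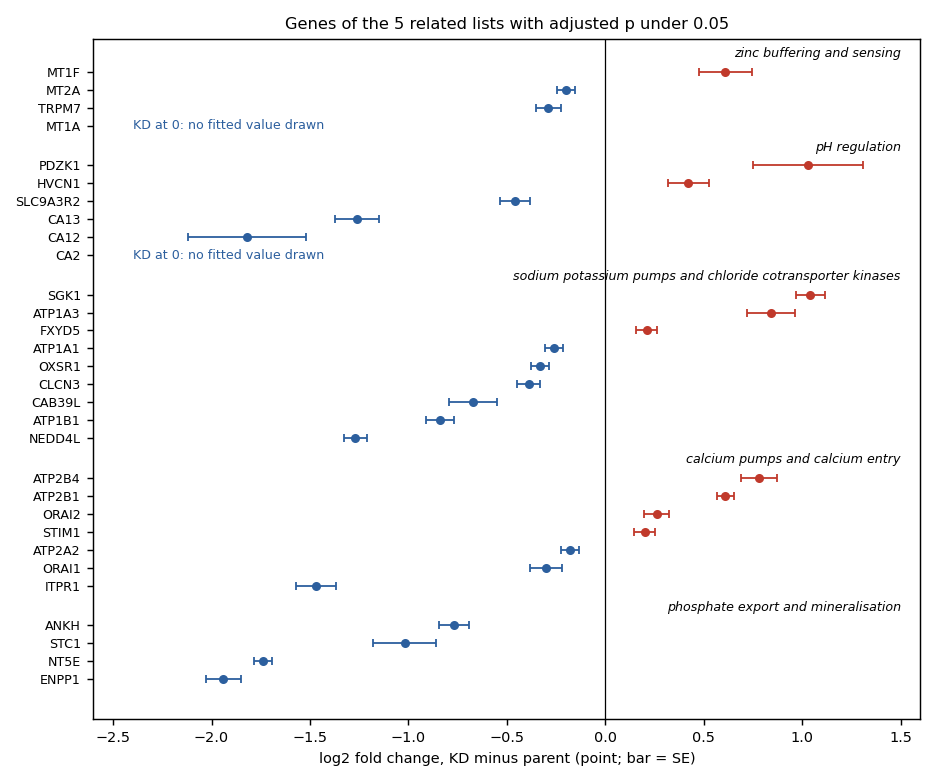
Log2 fold change of KD against parent (x axis, log2 scale, point with SE bar) for the called genes of the 5 related lists (y axis); red points are higher and blue points lower in KD. All points of the phosphate list lie left of 0, the other lists have points on both sides, and MT1A and CA2, at 0 counts in KD, have no point.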

How the data were processed

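RNA-seq of MDA-MB-231 gave 5 libraries, 2 labelled KD and 3 labelled parent, grouped and numbered by their titles. The authors deposited gene and transcript tables of expected counts in whole numbers, whose totals are equal in each library (14601078 to 18049386). STAR, DESeq2 and the build hg19 are named in the submitters' processing notes. What counted the reads, with which annotation and whether by strand is not given in the sources used here. Per the file headers, the authors' comparison table holds a mean signal of normalised counts, a log2 fold change, a Wald score and p-values.

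Genes were filtered with filterByExpr (minimum count 10, minimum total 15), scaled by TMM and tested with edgeR 4.0.16 (R 4.3.3), quasi-likelihood, group as the only term, which left 3 residual degrees of freedom. P-values were adjusted by Benjamini-Hochberg over all 16198 tested genes, threshold 0.05. CPM use TMM-scaled totals, as mean ± SD. The SE is the log2 fold change divided by the root of F. The code was tested on simulated data. Alternatives were RLE factors, DESeq2 1.42.0, no filter, each library left out, and a replicate block. Intervals and floors cover counting error only. CPM were not compared between genes, since no lengths were used.

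All called members were named except for a result that is not reported here, with the most counted member of each family, members at 0 in a whole group with at least 1 CPM in the other, the 3 largest uncalled changes and up to 4 called genes a list. The members and lists were chosen with earlier results of these data known. Identifiers of 75 of the 76 members matched the name table with the same symbol.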

Additional observations from a re-analysis of the deposited data

How the results depend on the processing

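The 21 called members kept their direction in all 9 alternatives. The number of called members ranged from 15 to 20 with a library left out, and was 21 with RLE factors, 19 with DESeq2, 18 without a filter (17 of them among the 21) and 19 with the replicate block. That of zinc transporters ranged from 6 to 9. With a library left out, the calls over all genes ranged from 1823 to 3383, those for zinc buffering from 1 to 4 and those for calcium from 3 to 5. The call on APEX1 held in all 9. Without a library of KD, the remaining library was assumed to vary like parent. With a library left out, SLC12A5 ranged from -6.95 to 0.17, its sign turning without KD replicate 2, and SLC12A9 from -0.18 to 0.10, its sign turning without KD replicate 2 or parent replicate 1 (0.03). SLC24A1 turned to -0.00 without a filter, -0.01 without KD replicate 1 and -0.03 without parent replicate 2. None of these log2 fold changes passed in either fit, and the cause was not tested.

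The replicate numbers are shared only as numbers: deviations from the group means correlated at 0.0775 for number 1 and -0.0239 for number 2. The fit with the replicate block called 3940 genes (1 residual degree of freedom). Of the 21 members it kept 19, and lost SLC30A3 and SLC9A3 (adjusted p = 0.114 and 0.142). Without a filter, SLC4A2, SLC4A7, SLC30A3 and SLC9A3 were lost (edgeR adjusted p = 0.0775, 0.0565, 0.0700 and 0.0686), and DESeq2 lost SLC30A3 and SLC9A3. Depth limits the members near 1 CPM, and 28 members could not be tested.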
